A study of Mus musculus with 38 samples.

Results

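Sorted XEN-like cells were compared with the mouse embryonic stem cells (mESCs) from which they had been derived, in 4 of the 25 bulk RNA libraries of a study of lineage choice under retinoic acid (RA). The members of the comparison were chosen by their labels. The 2 XEN-like libraries were made from cells of the E14 mESC line that had been held in N2B27 medium with 0.25 µM all-trans RA for 96 h and sorted by antibody as PDGFRA-positive and CD24-negative. The 2 mESC libraries were made from E14 cells kept in N2B27 with 2i/L, that is an inhibitor of MEK, an inhibitor of GSK3 and the cytokine LIF. The 2i/L medium also held additional insulin, which the study's methods left out of the N2B27 used with RA. No transgene or mutation was named for either group, and 2 libraries of PDGFRA-negative, CD24-positive cells sorted from the same kind of RA culture (ectoderm-like cells) served as a reference. The sorted libraries were labelled as biological replicates, and the study's methods speak of biological replicates for mESCs too, so that p-values measure the spread between 2 such libraries a group. The gates had been set against undifferentiated mESCs, and no sort was named for the mESCs themselves. Lineage, medium, RA and sorting therefore changed together between the groups and cannot be told apart.

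Extraembryonic endoderm (XEN) is the lineage that descends from the primitive endoderm of the blastocyst. It gives rise to the parietal endoderm, which secretes the thick basement membrane around the embryo, and to the visceral endoderm, which takes up and secretes proteins and lipids and sends patterning signals to the epiblast. Cells of this kind are driven by GATA and SOX17 transcription factors and carry the PDGF receptor alpha on their surface. The account below turns to genes outside the known marker sets of this lineage.

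The label was first checked against markers. The 4 markers chosen for these cells lay far apart in the 2 groups. Gata6, a GATA factor of primitive endoderm, had 291 and 100 UMIs (unique molecular identifiers, each of which stands for 1 captured RNA molecule) in XEN-like libraries 1 and 2, against 1 and 1 in mESC libraries 1 and 2. Flrt3, an adhesion protein of visceral endoderm, was counted 677 and 293 against 12 and 16 times, Emb, the membrane glycoprotein embigin, 1326 and 339 against 12 and 20 times, and Plat, tissue plasminogen activator, 196 and 134 against 5 and 5 times. In the ectoderm-like libraries the counts were 11 and 17 for Gata6, 233 and 194 for Flrt3, 550 and 536 for Emb and 85 and 74 for Plat. Flrt3, Emb and Plat were thus not particular to the XEN-like cells. On the CPM scale (UMIs scaled to a library total of 1000000), the sum of 11 XEN markers was 12049 and 6664 in the XEN-like libraries, 281 and 197 in the mESCs and 485 and 1779 in the ectoderm-like libraries. Of 11 ectoderm markers, the sum was 611 and 323 CPM in the XEN-like libraries, 213 and 192 in the mESCs and 3270 and 2803 in the ectoderm-like ones. Of these 11, all tested, 3 were higher in XEN-like cells than in mESCs, namely Prtg, Mdk and Meis1 (log2 fold changes 2.60 ± 0.37, 1.39 ± 0.40 and 4.46 ± 0.44), none was lower, and all 11 were lower than in ectoderm-like cells. The 6 mesoderm markers summed to 3.56 and 3.65 CPM in XEN-like and 4.37 and 5.22 in mESC libraries, with 1 tested and not called. The 7 markers of post-implantation epiblast summed to 46.7 and 29.2 against 48.1 and 29.6 CPM, with 2 tested and neither called. Of 10 trophoblast markers (72.1 and 59.2 against 11.8 and 13.1 CPM) 2 were tested, Plac1, also made by other extraembryonic tissue, being higher (127 and 57 against 1 and 3 UMIs, 5.75 ± 0.62) and Tfap2c lower (0 and 1 against 13 and 13 UMIs). The part of other cell types in the results was not tested. The label thus held at the level of markers. Pdgfra and Cd24a encode the antigens used in the sort and are no finding. They were counted among the 11 XEN and the 11 ectoderm markers, respectively, and so enter the sums and counts above. The 12 pluripotency markers were all lower than in mESCs (as were 10.5% of all genes tested). With scaling by library totals alone 10 were lower, and 10 or 11 when 1 XEN-like or mESC library was left out. The 12 still summed to 6267 and 4524 CPM in the XEN-like libraries, against 13436 and 18353 in mESCs. Dppa5a made up 5947 and 4351 CPM of the sums in the XEN-like libraries. In bulk RNA, fewer cells with a gene and less RNA of it per cell cannot be told apart. Mdk was not called without mESC library 1 or XEN-like library 1 (adjusted p up to 0.261) and Tfap2c was not called without either mESC library or either XEN-like library (adjusted p up to 0.311).

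The libraries differed in depth and in kind. They held 2285987 and 2297379 UMIs (mESCs), 1969024 and 1097157 UMIs (XEN-like cells) and 1799301 and 1547817 UMIs (ectoderm-like cells), so that XEN-like library 2 was the shallowest. In the 25% of genes with the longest transcripts, the median log2 ratio of library 1 to library 2 was 0.49 in XEN-like cells, against −0.01 in the 25% with the shortest, and Cubn and Lrp2, whose messages are long, had lower CPM in XEN-like library 2. The same ratios were 0.27 and −0.06 for the ectoderm-like libraries, and −0.06 and 0.13 for the mESCs. Ectoderm-like library 2 held more XEN marker RNA than library 1, as the sums above show, and values of both are given below. Its part in the results was not tested.

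Of 8947 genes that passed the filter on low counts, 1103 (12.3%) were higher and 939 (10.5%) lower in XEN-like cells than in mESCs at an adjusted p under 0.05 (edgeR quasi-likelihood test, Benjamini-Hochberg adjustment, used for every adjusted p below; a gene is called when it passes this threshold). Outside the marker sets, 1089 and 927 genes remained. The changes were large: 336 of the higher and 327 of the lower genes differed by more than 8-fold, and 47 of the higher genes had no UMI in either mESC library. The balance of the calls depended on the scaling. With TMM factors the median log2 fold change of all genes was −0.06 and 54.0% of the calls were higher, whereas with library totals alone the median was 0.15, with 1339 genes higher and 703 lower (65.6% higher). Log2 fold changes below are on the TMM scale. The shift of 0.21 applies to those against mESCs and not to those against ectoderm-like cells. Lower bounds on a fold and ratios of summed counts use library totals. Without XEN-like library 1, 738 genes were higher and 532 lower. The inclusion of genes with few counts (no filter) raised the counts to 1326 and 1383. Against the ectoderm-like cells, 625 genes (6.99%) were higher and 514 (5.74%) lower in XEN-like cells (499 and 513 under library totals). Without ectoderm-like library 1 these counts fell to 135 and 134, and leaving out any other sorted library gave 318 to 444 higher and 160 to 226 lower genes. Each count of called list members below is to be read beside the shares over all genes tested. These were 12.3% higher and 10.5% lower against mESCs, and 6.99% higher and 5.74% lower against ectoderm-like cells.

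**Figure D1:**
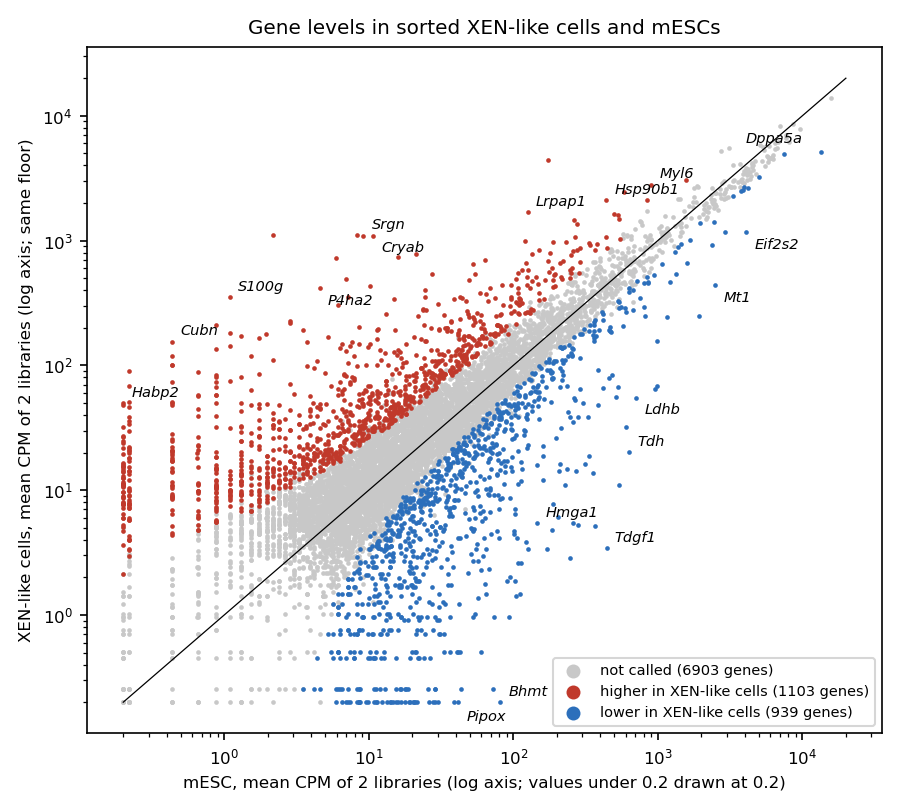
Mean CPM of the 2 XEN-like libraries (vertical, log axis) against that of the 2 mESC libraries (horizontal, log axis) for 8945 of the 8947 genes tested (2 rows whose symbol had been turned into a date are not drawn), with the line of equal level. Red points are the 1103 genes called higher and blue points the 939 called lower; the labelled genes Habp2 and S100g lie far above the line and Bhmt and Pipox far below it.

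The 15 genes with the largest rise outside the marker sets included secreted proteins, membrane transporters and transcription factors. Of these 15, 13 had 0 UMIs in both mESC libraries, and for these the fold is a lower bound computed from a floor of 3 counts over the 2 mESC libraries. Habp2, a secreted protease that binds hyaluronan, was counted 128 and 38 times in XEN-like libraries 1 and 2 (at least 82.7-fold higher, adjusted p = 0.00124). Chst15, which sulphates chondroitin chains in the Golgi, had 99 and 50 UMIs (at least 74.2-fold, adjusted p = 0.000177). Clcn5, a chloride and proton exchanger of endosomes that epithelia need for protein uptake, had 49 and 31 UMIs (at least 39.9-fold, adjusted p = 0.000188). None of these 3 genes was counted in either mESC library. Their presence in both XEN-like libraries followed from the rule of choice, at least 10 counts in each and no overlap between the groups. Groups that did not overlap, with XEN-like cells higher, were seen for 37.3% of all genes tested.

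S100g, the intracellular calcium carrier calbindin-D9k, was the most abundant of these genes, with 365 and 339 CPM in the XEN-like libraries and 1 and 4 UMIs in the mESCs (log2 fold change 8.05 ± 1.18, SE, adjusted p = 0.000609). It also was present in the ectoderm-like libraries, at 4.45 and 89.8 CPM, that is mostly in the one with more XEN marker RNA. Slco3a1, an organic anion transporter, had 46 and 22 UMIs, Nxf7, an X-linked member of the RNA export factor family, 42 and 31, Sh3tc2, a protein of recycling endosomes, 32 and 16, and the unnamed transcript 3110062M04Rik 37 and 15, all against 0 in mESCs and with adjusted p between 0.000245 and 0.0019. Arhgef5, an activator of small GTPases, had 43 and 10 UMIs (adjusted p = 0.00369). The remaining members of this group, Foxq1, Foxa2, Sp8, Bmper, Bmp2 and Cubn, are taken up with their families below. Of the 15 genes, 12 were also higher than in ectoderm-like cells at an adjusted p under 0.05, beside 6.99% of all genes tested. This contrast uses again the XEN-like libraries in which the 15 were chosen as high, so it is no independent reading. The exceptions were Foxa2, Sp8 and 3110062M04Rik. Arhgef5 was not called without XEN-like library 1 (adjusted p = 0.061).

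**Figure D2:**
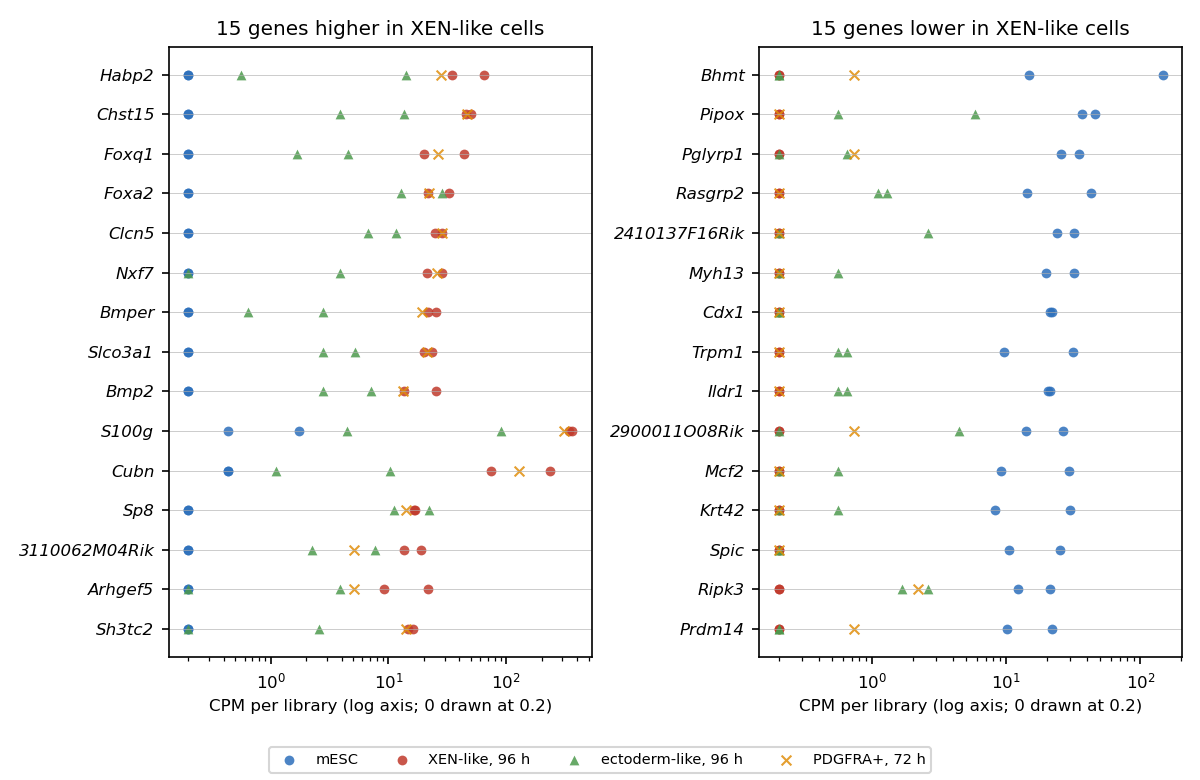
CPM in each library (horizontal, log axis) of the 15 genes outside the marker sets with the largest rise and the 15 with the largest fall. Each symbol is 1 library of mESCs, XEN-like cells, ectoderm-like cells or PDGFRA-positive cells at 72 h; the XEN-like libraries lie at 0 for all 15 genes that fell, and the mESC libraries lie at 0 for 13 of the 15 that rose.

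Promoter letters were read for these genes from RefSeq (assembly GRCm38.p6, which is the mm10 build the authors used). The motif AGATAA, read by GATA factors, the octamer ATGCAAAT, read by POU factors such as Oct4, and the E-box CACGTG were searched on both strands between 250 bases before and 50 bases after the start of each gene. AGATAA was held by 6.36% of 833 promoters of genes called higher, 6.43% of 684 of genes called lower and 6.03% of 6716 of all genes tested. The octamer was in 1.08%, 1.32% and 1.41% of them and the E-box in 9.36%, 12.1% and 10.97%, and the median number of CpG was 21, 17 and 22. The shares among genes that rose were thus near those of all genes tested. A match describes the letters and is no evidence of binding. Among the genes with the largest rise or fall, promoters of 10 of the 15 that rose and 11 of the 15 that fell were read singly. The 250 bases before the start are shown for the 5 of them in which AGATAA or the octamer was found there. The matched letters, or their reverse complement, are in capitals. In Habp2 (chr19:56287662-56287911, plus strand) and Nxf7 (chrX:135598782-135599031, minus strand), which rose, the match began 59 bases (the octamer) and 190 bases (AGATAA) before the start. In Pipox (chr11:77893873-77894122, minus strand), Pglyrp1 (chr7:18884440-18884689, plus strand) and Trpm1 (chr7:64153585-64153834, plus strand), which fell, it began 195 bases (the octamer), 30 bases (AGATAA) and 244 bases (AGATAA) before the start. All sequences run 5′ to 3′ towards the gene.
Habp2: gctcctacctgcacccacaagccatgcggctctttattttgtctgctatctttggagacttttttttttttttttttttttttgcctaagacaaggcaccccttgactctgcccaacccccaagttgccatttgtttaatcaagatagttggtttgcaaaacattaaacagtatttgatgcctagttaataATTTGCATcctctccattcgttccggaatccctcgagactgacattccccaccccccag
Nxf7: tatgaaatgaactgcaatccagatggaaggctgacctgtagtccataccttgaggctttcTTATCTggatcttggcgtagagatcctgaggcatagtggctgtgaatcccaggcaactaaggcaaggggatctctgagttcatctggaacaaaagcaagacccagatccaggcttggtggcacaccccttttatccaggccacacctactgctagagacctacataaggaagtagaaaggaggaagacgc
Pipox: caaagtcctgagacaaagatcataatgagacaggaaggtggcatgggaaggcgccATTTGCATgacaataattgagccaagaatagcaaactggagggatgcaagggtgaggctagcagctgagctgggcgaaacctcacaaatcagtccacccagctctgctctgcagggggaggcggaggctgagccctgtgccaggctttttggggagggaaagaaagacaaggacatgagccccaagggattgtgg
Pglyrp1: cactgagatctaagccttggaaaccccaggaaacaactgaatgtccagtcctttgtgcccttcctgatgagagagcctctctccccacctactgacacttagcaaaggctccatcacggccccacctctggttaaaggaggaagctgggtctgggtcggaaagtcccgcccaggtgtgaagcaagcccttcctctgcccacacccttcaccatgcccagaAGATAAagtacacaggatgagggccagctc
Trpm1: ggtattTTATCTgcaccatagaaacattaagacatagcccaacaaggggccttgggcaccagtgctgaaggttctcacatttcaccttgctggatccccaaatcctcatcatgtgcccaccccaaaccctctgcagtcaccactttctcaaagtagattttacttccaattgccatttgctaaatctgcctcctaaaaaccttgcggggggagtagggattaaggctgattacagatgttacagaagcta

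Genes of secretion and of the cytoskeleton were among those that gained most molecules. After Sparc, which is one of the XEN markers, the largest gains in mean CPM among the called genes included those of Myl6, Hsp90b1, Lrpap1, Sec61g, Fth1 and Pdia6. Myl6, a light chain of non-muscle myosin, was at 2571 and 3050 CPM in XEN-like cells and at 1104 and 684 CPM in mESCs (log2 fold change 1.47 ± 0.29, adjusted p = 0.00336). It was also higher than in ectoderm-like cells, at 999 and 1187 CPM (adjusted p = 0.0072). Fth1, the heavy chain of ferritin, stood at 1857 and 2374 against 904 and 775 CPM and Sec61g, a subunit of the protein-conducting channel, at 2953 and 3214 against 1695 and 1421. These 2 changes were smaller (log2 fold changes 1.15 ± 0.32 and 0.79 ± 0.25), and neither call held without XEN-like library 2 or without either mESC library (adjusted p up to 0.157 and 0.201, respectively); that of Sec61g was also lost without XEN-like library 1.

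Proteins bound for secretion enter the endoplasmic reticulum (ER) through the Sec61 channel, are folded there by chaperones and leave in COPII vesicles. Of 46 genes of this route, 45 were tested and 33 were higher in XEN-like cells than in mESCs, with 1 lower and a median log2 fold change of 1.47 (median over all genes −0.06). Leaving out 1 XEN-like or mESC library gave between 26 and 31 higher genes. Hsp90b1, the ER form of Hsp90, was at 2912 and 1281 CPM in XEN-like cells and 473 and 402 in mESCs (log2 fold change 2.02 ± 0.31, adjusted p = 0.000892). Hspa5 (BiP), the main Hsp70 of the ER, was at 1308 and 654 against 257 and 117 CPM (2.17 ± 0.37, adjusted p = 0.00161) and calreticulin (Calr) at 1370 and 748 against 329 and 208 CPM (1.76 ± 0.31, adjusted p = 0.00176).

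The disulphide isomerase Pdia6 followed the same course, with 1715 and 1232 against 275 and 250.3 CPM (2.27 ± 0.27, adjusted p = 0.000188). The largest changes on the route were those of Dnajc3, a co-chaperone of BiP (log2 fold change 3.62 ± 0.40, adjusted p = 0.000136), and of Kdelr3, a receptor that returns escaped ER proteins, at 218 and 342 against 19.2 and 27.9 CPM (3.38 ± 0.47, adjusted p = 0.000433). At the entry to the ER, 2 of the 3 Sec61 subunits tested passed the threshold, and Sec61b did not (0.65 ± 0.23, adjusted p = 0.067). At the exit, Sec23a and Sec24d of the COPII coat rose (1.76 and 2.49) and so did the cargo receptors Tmed2, Tmed10 and Lman1 (2.46, 1.78 and 1.35). Sec13, Sec23b, Sar1b and Mia3 of the same step were not called (0.60, 0.35, 0.73 and 0.83, adjusted p = 0.202, 0.535, 0.112 and 0.149). Against ectoderm-like cells, 30 of the 45 genes were higher and none was lower, with Kdelr3 at 17.8 and 44.6 CPM there.

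Regulators of the unfolded protein response did not move as 1 group. Xbp1, a transcription factor that expands the ER of secretory cells, was at 139 and 129 CPM in XEN-like cells and 33.2 and 20.5 CPM in mESCs (2.11 ± 0.37, adjusted p = 0.00192). Atf4, which acts in the amino acid and stress response, was the 1 gene of the list that fell, from 81.8 and 172 to 63.0 and 35.5 CPM (−1.58 ± 0.39, adjusted p = 0.0128), and it was at 24.5 and 21.3 CPM in ectoderm-like cells, a difference that was not called. Ddit3 (Chop), a stress factor downstream of Atf4, had 14 and 2 UMIs against 6 and 27 and was not called (−0.79 ± 0.77, adjusted p = 0.494). Atf4 was not called without mESC library 2 or XEN-like library 2 (adjusted p up to 0.117).

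Most of the tested enzymes and chaperones that act on collagen inside the ER rose. Of 22 genes of collagen folding and maturation 16 were tested, and 12 were higher and 1 lower in XEN-like cells (9 to 12 when 1 XEN-like or mESC library was left out) with a median log2 fold change of 1.70. P4ha2, a catalytic subunit of collagen prolyl 4-hydroxylase, rose from 2.19 and 6.96 CPM in mESCs to 412 and 415 in XEN-like cells (6.27 ± 0.55, adjusted p = 3.68e-05). Its sister subunit P4ha1 was at 262 and 258 against 8.75 and 17.4 CPM (4.09 ± 0.52, adjusted p = 0.000249), and the shared beta subunit P4hb at 961 and 613 against 137 and 133 CPM (2.32 ± 0.27, adjusted p = 0.00018). Serpinh1 (Hsp47), a chaperone dedicated to collagen, stood at 925 and 639.8 CPM in XEN-like cells, 13.1 and 29.6 in mESCs and 81.7 and 165 in ectoderm-like cells (4.96 ± 0.48 against mESCs, adjusted p = 6.63e-05).

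Of the lysyl hydroxylases, Plod2 showed the largest difference, at 314 and 362 against 14.0 and 15.7 CPM (4.31 ± 0.56, adjusted p = 0.000307), followed by Plod3 (2.31 ± 0.39) and Plod1 (2.09 ± 0.56). Lepre1, a prolyl 3-hydroxylase, its partner Crtap, the cyclophilin Ppib, the isomerase Fkbp9 and the collagen galactosyltransferase Glt25d1 rose by smaller steps, with log2 fold changes of 1.95, 1.12, 1.40, 1.30 and 1.45. Pcolce, which assists the trimming of fibrillar procollagen outside the cell, moved the other way, from 88.4 and 73.1 CPM to 5.08 and 11.8 (−3.54 ± 0.47, adjusted p = 0.000347), and the lysyl oxidase Loxl2 was not called, at 276 and 192 against 366 and 306 CPM (−0.73 ± 0.32, adjusted p = 0.129). Leprel2, another prolyl 3-hydroxylase, was not called, with 144 and 56 against 140 and 104 UMIs (0.02 ± 0.32, adjusted p = 0.979). Against ectoderm-like cells 11 of the 16 genes were higher and none was lower. Plod1, Crtap and Fkbp9 were not called without mESC library 1 or XEN-like library 1 (adjusted p up to 0.216, 0.253 and 0.0764).

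Matrix genes beyond the collagen IV and laminin chains of the marker set were called about as often as all genes tested, of which 12.3% were higher and 10.5% lower. Of 33 genes of basement membranes and matrix 13 were tested, 1 was higher, 2 were lower, and the median log2 fold change was 0.17. The filter was run over all 3 groups, and some of the 13 passed through ectoderm-like counts. Hapln1 had 15 and 26 UMIs in ectoderm-like cells and 0 in XEN-like cells and mESCs. Fbn2 had 35 and 24 there, 1 and 0 in XEN-like cells and 0 in mESCs. Such genes could hardly be called here, yet they enter the counts and the median. Tinagl1, a basement membrane glycoprotein, rose from 3.06 and 5.66 to 38.1 and 54.7 CPM (3.18 ± 0.63, adjusted p = 0.00369). Fibronectin (Fn1) fell from 38.9 and 134 to 14.2 and 8.2 CPM (−3.14 ± 0.59, adjusted p = 0.00264). Col18a1, a basement membrane collagen, fell from 17.9 and 10.4 to 3.56 and 3.65 CPM (−2.18 ± 0.52, adjusted p = 0.0106). Col18a1 was not called without XEN-like library 1 (adjusted p = 0.105).

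Nidogen 1 (Nid1), which links laminin to collagen IV, was at 86.3 and 50.1 CPM in XEN-like cells and 34.1 and 35.3 in mESCs and was not called (0.76 ± 0.33, adjusted p = 0.121). It did differ from the ectoderm-like cells, where it was at 5.56 and 7.75 CPM (3.45 ± 0.39, adjusted p = 0.000842). Perlecan (Hspg2), a heparan sulphate core protein, did not pass the filter, with 29 and 2 UMIs in XEN-like cells and 2 and 4 in mESCs. Among the 20 genes that were not tested, Lama2, Lama4, Col4a4, Col4a5 and Col4a6 had 0 UMIs in both XEN-like libraries.

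Most of the proteases and protease inhibitors that were tested rose. Of 24 genes listed 14 were tested and 12 were higher (the marker Plat included), none lower, with a median log2 fold change of 3.67; 11 to 13 were higher when 1 XEN-like or mESC library was left out. Plaur, the receptor of urokinase plasminogen activator, was at 22.9 and 39.2 CPM against 2.62 and 2.18 (3.45 ± 0.52, adjusted p = 0.000769), and F3, the tissue factor that starts coagulation, at 108 and 347 against 3.94 and 1.74 (6.14 ± 0.84, adjusted p = 0.000395). The ligand of Plaur, urokinase (Plau), did not pass the filter, with 1 and 0 UMIs in XEN-like cells and 1 and 0 in mESCs. Tfpi, the inhibitor of the tissue factor pathway, rose less, to 141 and 186 from 39.4 and 44.4 CPM (1.77 ± 0.36, adjusted p = 0.00434).

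Timp2, an inhibitor of metalloproteases, had 67 and 42 UMIs in the XEN-like libraries against 0 and 1 in the mESCs (adjusted p = 9.17e-05), and its relative Timp3 110 and 89 against 1 and 0 (adjusted p = 0.000848). Timp1, by contrast, was at 94.0 and 77.5 against 75.2 and 104 CPM (−0.28 ± 0.29, adjusted p = 0.534). Cst3, the secreted inhibitor cystatin C, was at 1045 and 949 against 113 and 126 CPM (2.85 ± 0.44, adjusted p = 0.000851). Spink3, a secreted trypsin inhibitor, had 123 and 71 UMIs against 7 and 0 in mESCs (5.13 ± 0.89, adjusted p = 0.00169) and was at 47.8 and 193 CPM in the ectoderm-like libraries, beside 62.5 and 64.7 in XEN-like cells. Serpinb6a, an intracellular protease inhibitor, rose by 1.20 on the log2 scale. Serpinb6a was not called without mESC library 2 or XEN-like library 2 (adjusted p up to 0.0939).

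Visceral endoderm takes up maternal proteins through the receptors cubilin and megalin. Cubilin (Cubn) was counted 463 and 82 times in XEN-like libraries 1 and 2 and 1 and 1 times in the mESCs, a ratio of the summed and depth-scaled counts of 407, 95% interval 112 to 3372, with an adjusted p of 0.000175. Megalin (Lrp2) had 188 and 42 against 3 and 1 UMIs (5.95 ± 0.65, adjusted p = 0.000132). Lrpap1, the chaperone that escorts megalin and its relatives through the ER, rose from 131 and 119.7 to 2298 and 1065 CPM (3.51 ± 0.47, adjusted p = 0.000347). Amn, the anchor of cubilin, did not pass the filter with 5 and 1 UMIs in XEN-like cells and 0 and 1 in mESCs. Cubn, Lrp2 and Lrpap1 were also higher than in ectoderm-like cells, where Lrpap1 was at 77.3 and 209 CPM (log2 difference 3.61 ± 0.47, adjusted p = 0.00119).

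In the wider list of visceral endoderm genes, 14 of 29 were tested, 9 were higher and 2 lower (5 higher without XEN-like library 1). Cited1, a transcriptional co-regulator, was at 335 and 534 against 9.62 and 10.9 CPM (5.21 ± 0.82, adjusted p = 0.001). The thyroid hormone carrier transthyretin (Ttr) had 51 and 99 UMIs in XEN-like cells, 2 and 2 in mESCs and 76 and 283 in ectoderm-like cells, and the difference between the sorted populations was not called (−0.86 ± 0.67, adjusted p = 0.457). Retinol-binding protein 4 (Rbp4) had 44 and 21 UMIs in XEN-like cells, 1 and 1 in mESCs and 6 and 112 in ectoderm-like cells. Other genes that rose were Mttp, which loads lipid onto lipoproteins (58 and 11 against 0 and 2 UMIs), the ligand Ihh (28 and 11 against 0 and 1) and the metal transporter Slc39a8 (37 and 21 against 1 and 1). Rbp4 was not called without either mESC library or XEN-like library 1 (adjusted p up to 0.058) and Mttp was not called without XEN-like library 1 (adjusted p = 0.0528). Ihh was not called without mESC library 1 or XEN-like library 1 (adjusted p up to 0.0873).

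Some genes of serum proteins that visceral endoderm secretes were near 0, unlike Ttr and Rbp4. Alpha-fetoprotein (Afp) had 6 and 2 UMIs in XEN-like and 3 and 1 in mESC libraries, Apoa1 2 and 1 against 1 and 0, and Apob and Fgg 0 in all 4. Of the apolipoproteins that passed the filter, 2 fell. Apoe went from 86.6 and 457 to 22.9 and 5.47 CPM (−4.42 ± 0.74, adjusted p = 0.00145) and Apoc1 from 167 and 126 to 21.8 and 10.0 (−3.37 ± 0.38, adjusted p = 0.000143).

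Several transcription factors of endoderm had few or no UMIs in mESCs and rose. Of 26 factors outside the marker set 16 were tested, 9 were higher and 2 lower than in mESCs (0 or 1 lower when 1 XEN-like or mESC library was left out). Foxq1, a forkhead factor, had 86 and 22 UMIs in XEN-like cells, 0 in mESCs and 3 and 7 in ectoderm-like cells (at least 53.8-fold higher than in mESCs, adjusted p = 0.000238). Sox7, a relative of Sox17 in parietal endoderm, had 95 and 32 against 1 and 0 UMIs (ratio 189.8, 95% interval 33.5 to 7557, adjusted p = 0.000202). Both genes were also higher than in ectoderm-like cells (adjusted p = 0.00429 and 0.00206).

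Foxa2, a pioneer factor of endoderm that is also made by the ventral neural tube, had 64 and 24 UMIs in XEN-like cells and 0 in mESCs (at least 43.8-fold, adjusted p = 0.000262), yet 23 and 44 in ectoderm-like cells, and the difference between the sorted populations was not called (0.51 ± 0.45, adjusted p = 0.527). Sp8, a zinc-finger factor of the Sp family, had 33 and 18 UMIs against 0 in mESCs (adjusted p = 0.000503) and 20 and 34 in ectoderm-like cells (0.10 ± 0.47, adjusted p = 0.919). Id2, an inhibitor of basic helix-loop-helix factors, and Nr2f2, an orphan nuclear receptor, rose against mESCs (4.03 ± 0.50 and 3.69 ± 0.54) but were lower than in ectoderm-like cells (−2.50 ± 0.38 and −1.77 ± 0.35). Klf6, a zinc-finger factor, was higher than in both other groups, at 238 and 186 CPM in XEN-like cells, 24.9 and 23.5 in mESCs and 33.3 and 74.3 in ectoderm-like cells (2.91 ± 0.39 against mESCs, adjusted p = 0.000347).

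Snai1, a repressor of epithelial genes, had 34 and 10 UMIs against 2 and 4 (3.09 ± 0.79, adjusted p = 0.015), and Creb3l2, a factor tied to the ER and secretion, 58 and 14 against 4 and 6 (3.05 ± 0.54, adjusted p = 0.00195). Tbx3, a T-box factor of both mESCs and endoderm, fell from 109 and 131 to 84.8 and 27.3 CPM (−1.32 ± 0.40, adjusted p = 0.033). Elf3, an epithelial ETS factor, was at 179.8 and 94.8 CPM against 67.4 and 122 in mESCs and was not called (0.30 ± 0.36, adjusted p = 0.589), and was higher than in ectoderm-like cells, at 10.0 and 12.3 CPM (3.71 ± 0.43, adjusted p = 0.000865). Snai1 was not called without mESC library 1 or XEN-like library 1 (adjusted p up to 0.205) and Creb3l2 was not called without XEN-like library 1 (adjusted p = 0.0505). Tbx3 was not called without mESC library 2, either ectoderm-like library or XEN-like library 2 (adjusted p up to 0.181).

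Genes of cell contacts changed in both directions. Among 32 genes of adhesion and intermediate filaments 24 were tested. Of these, 9 (37.5%, beside 12.3% of all genes tested) were higher, the markers Flrt3 and Emb included, and 3 (12.5%, beside 10.5%) lower. The simple epithelial keratins rose: Krt8 was at 165 and 142 CPM against 9.62 and 5.66 (4.12 ± 0.49, adjusted p = 0.0002), its partner Krt18 at 100.0 and 138 against 1.75 and 1.31 (6.03 ± 0.68, adjusted p = 0.000143) and Krt19 at 22.3 and 41.0 against 1.75 and 2.61 (3.60 ± 0.67, adjusted p = 0.00265). In ectoderm-like cells Krt18 was at 56.7 and 172 CPM, and the difference was not called (0.15 ± 0.46, adjusted p = 0.872). The claudins of tight junctions went both ways, Cldn6 up to 154 and 231 CPM from 1.75 and 5.22 (5.56 ± 0.84, adjusted p = 0.000766) and Cldn4 down to 0 and 1 UMIs from 18 and 53 (ratio 0.0211, 95% interval 0.000526 to 0.121, adjusted p = 0.00386). Cldn4 was not called without XEN-like library 1 (adjusted p = 0.0543).

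E-cadherin (Cdh1) fell from 74.4 and 91.8 to 8.13 and 9.11 CPM (−3.49 ± 0.37, adjusted p = 0.00012) and plakoglobin (Jup), a junction plaque protein, from 48.1 and 37.9 to 14.7 and 13.7 (−1.80 ± 0.39, adjusted p = 0.00587). Without XEN-like library 1 only Cdh1 of the 3 lower genes was called. N-cadherin (Cdh2) had 3 and 0 UMIs in XEN-like cells, 6 and 6 in mESCs and 157 and 114 in ectoderm-like cells, where it was higher than in XEN-like cells (adjusted p = 0.000258). Vimentin (Vim), an intermediate filament of mesenchyme, was at 129 and 147 CPM against 92.7 and 103 and was not called (0.29 ± 0.33, adjusted p = 0.562). Integrin beta 1 (Itgb1) rose from 17.5 and 16.1 to 122 and 106 CPM (2.55 ± 0.30, adjusted p = 0.000188). Jup was not called without XEN-like library 1 (adjusted p = 0.0611).

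Of 40 genes of the actin cytoskeleton, annexins and their S100 partners, 38 were tested, 16 were higher and 2 lower, the latter being S100a6 and Lgals3, with 20 higher and 0 lower under library totals. Without XEN-like library 2, 10 were higher, and 1 or none was lower when any 1 XEN-like or mESC library was left out. Anxa2, a membrane-binding annexin, was at 116 and 264 CPM against 4.37 and 18.3 (3.87 ± 0.66, adjusted p = 0.00158), and Anxa5 rose by 3.16 on the log2 scale. The targets of the Yap co-activator Ctgf and Cyr61 both rose (3.07 ± 0.66 and 3.46 ± 0.40), and Cyr61 was at 82.3 and 89.3 CPM in XEN-like cells and 82.3 and 71.7 in ectoderm-like cells, a difference that was not called. The actin genes Actb and Actg1 were not called; Actg1 was at 5138 and 5889 against 3346 and 2820 CPM (0.65 ± 0.28, adjusted p = 0.125). Srgn, the proteoglycan core protein serglycin, and Cryab, a small heat shock protein, belong to no list and were chosen after their levels were known: Srgn was at 1078 and 1116 CPM against 9.19 and 9.14 (6.69 ± 0.81, adjusted p = 0.000211) and Cryab at 804 and 1390 against 19.2 and 2.18 (6.51 ± 1.06, adjusted p = 0.00119). Ctgf was not called without XEN-like library 2 (adjusted p = 0.0561).

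**Figure D3:**
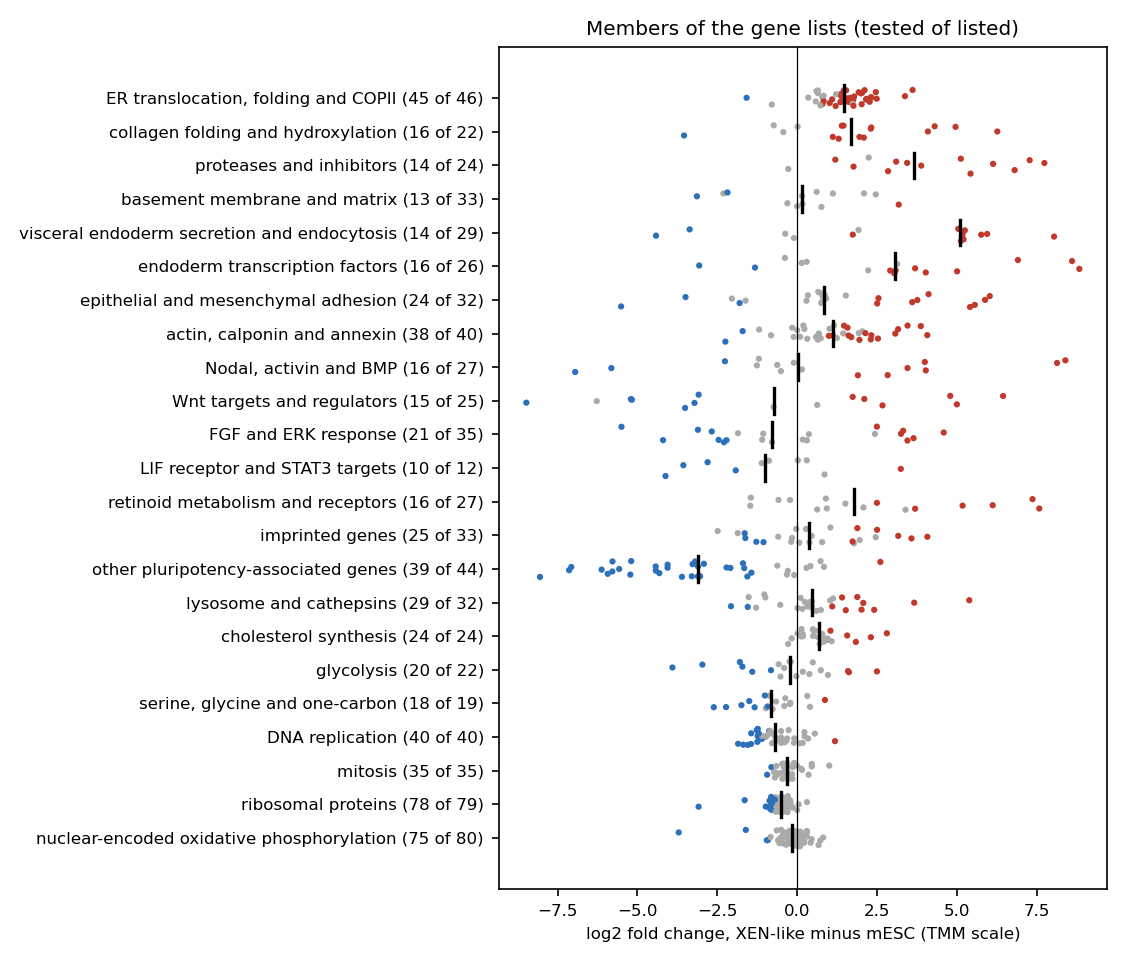
log2 fold change between XEN-like cells and mESCs (horizontal, TMM scale) of the tested members of 23 gene lists. Each point is 1 gene, red where called higher, blue where called lower and grey where not called, the black bar is the list's median, and the numbers give genes tested of genes listed; the ER list has its median at 1.47 and the list of pluripotency-associated genes at −3.11.

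In the BMP family the ligands went in opposite directions. Bmp2 had 50 and 15 UMIs in XEN-like cells and 0 in mESCs (at least 32.4-fold higher, adjusted p = 0.000544). Bmp4 went the other way, from 36 and 52 UMIs in mESCs to 0 and 1 (ratio 0.017, 95% interval 0.000425 to 0.0971, adjusted p = 0.000557), and so did Bmp7, from 13 and 21 to 0 and 0 (at least 7.58-fold lower, adjusted p = 0.00237). In ectoderm-like cells the counts were 5 and 11 for Bmp2, 18 and 25 for Bmp4 and 14 and 12 for Bmp7, and all 3 differed from the XEN-like cells (adjusted p = 0.0361, 0.00536 and 0.00768).

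Of the secreted proteins that bind these ligands, Bmper and Fst rose and Fstl1 was not called (−0.62 ± 0.34, adjusted p = 0.209). Bmper, which binds BMPs outside the cell, had 43 and 28 UMIs against 0 (at least 35.4-fold, adjusted p = 0.000307), and follistatin (Fst), which traps activin, was at 117 and 142 against 3.94 and 10.0 CPM (4.00 ± 0.62, adjusted p = 0.000897). Among the targets, Id1 and Id2 rose (1.90 ± 0.62 and 4.03 ± 0.50), whereas Id3 was not called (−1.20 ± 0.52, adjusted p = 0.123), and Id1, Id2 and Id3 were all lower than in ectoderm-like cells (−2.86 ± 0.45, −2.50 ± 0.38 and −4.87 ± 0.53). The inhibitory Smad7 fell (−2.26 ± 0.50, adjusted p = 0.00665). In all, 16 of 27 genes of the Nodal, activin and BMP pathways were tested, with 7 higher, 3 lower and a median log2 fold change of 0.02. Nodal itself, counted with the pluripotency-associated genes, fell from 81 and 72 to 2 and 0 UMIs (adjusted p = 0.000162). Id1 was not called without mESC library 2, either ectoderm-like library or XEN-like library 2 (adjusted p up to 0.207) and Smad7 was not called without mESC library 2 (adjusted p = 0.0679).

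Several Wnt targets fell in XEN-like cells, whereas secreted Wnt inhibitors went both ways. A GSK3 inhibitor, which activates this pathway, was in the medium of the mESCs and not in that of the sorted cells; its part in these values, like that of LIF and of the MEK inhibitor in those that follow, was not tested. Of 25 genes 15 were tested, 6 were higher (2 without XEN-like library 1) and 6 lower. The target Axin2, a feedback inhibitor, fell from 11 and 50 UMIs to 3 and 2 (adjusted p = 0.0206) and the target Sp5, a zinc-finger factor, from 9 and 47 to 0 and 1 (adjusted p = 0.00962). Cdx1, a further target, had 50 and 49 UMIs in mESCs and 0 in XEN-like cells. Ccnd1, the cyclin D1 gene, fell from 48.6 and 55.7 to 7.11 and 2.73 CPM (−3.51 ± 0.43, adjusted p = 0.000233) and was at 95.6 and 136 CPM in ectoderm-like cells. Axin2 was not called without mESC library 2 or either XEN-like library (adjusted p up to 0.251) and Sp5 was not called without mESC library 2 or XEN-like library 1 (adjusted p up to 0.104).

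On the side of the inhibitors, Dkk1, which blocks the Wnt co-receptor, rose from 7 and 3.48 to 179.8 and 159 CPM (4.80 ± 0.67, adjusted p = 0.000456) and was also higher than in ectoderm-like cells (3.08 ± 0.59, adjusted p = 0.00696). Frzb, which binds Wnt ligands, had 13 and 6 UMIs against 0 in mESCs (adjusted p = 0.00342), and its relative Sfrp5 67 and 1, nearly all in XEN-like library 1, against 1 and 1 (adjusted p = 0.0178). Another relative, Sfrp1, fell from 21.9 and 62.7 to 1.52 and 0.911 CPM (−5.21 ± 0.83, adjusted p = 0.00109). Among receptors Fzd5 fell and Fzd7 rose (−3.09 ± 0.47 and 1.74 ± 0.54). Sfrp5 was not called without XEN-like library 1 (adjusted p = 0.792) and Fzd7 was not called without mESC library 1, ectoderm-like library 2 or either XEN-like library (adjusted p up to 0.173).

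LIF was likewise present for the mESCs only. Its receptor Lifr was the 1 gene of 10 tested in this pathway that rose, from 22.3 and 27.4 to 363 and 192 CPM (3.25 ± 0.35, adjusted p = 0.000132), and it was higher than in ectoderm-like cells, at 27.2 and 37.5 CPM (3.18 ± 0.35, adjusted p = 0.000681). The co-receptor Il6st and the effector Stat3 were not called (0.30 ± 0.47 and 0.02 ± 0.36, adjusted p = 0.683 and 0.975). The feedback target Socs2 fell from 17.9 and 21.8 to 2.54 and 0.911 CPM (−3.56 ± 0.52, adjusted p = 0.000622) and the kinase gene Pim1 from 17.5 and 17.4 to 3.56 and 1.82 (−2.80 ± 0.47, adjusted p = 0.00138). Socs3, the classical feedback inhibitor, was at 8.63 and 11.8 against 21.0 and 16.5 CPM and missed the threshold (−1.11 ± 0.42, adjusted p = 0.0783). Gbx2, a homeobox gene, fell from 18 and 31 to 1 and 1 UMIs (ratio 0.061, 95% interval 0.00719 to 0.232, adjusted p = 0.023), and the phosphatase gene Ptpn6 was lower too (−1.92 ± 0.60). Of the 10 genes 4 were lower (2 without mESC library 2 or XEN-like library 2). Gbx2 was not called without mESC library 2 or either XEN-like library (adjusted p up to 0.167) and Ptpn6 was not called without either mESC library, either ectoderm-like library or XEN-like library 2 (adjusted p up to 0.165).

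FGF signals reach the nucleus through MEK and ERK, and the MEK inhibitor was in the medium of the mESCs only. Of the genes that this pathway usually raises, some were lower and some higher in XEN-like cells. Etv5, an ETS factor, fell from 55.6 and 73.1 to 2.03 and 0.911 CPM (−5.50 ± 0.48, adjusted p = 3.66e-05) and the feedback inhibitor Spry2 from 54.7 and 32.6 to 11.2 and 9.11 (−2.29 ± 0.38, adjusted p = 0.00125). The phosphatase gene Dusp6 was at 2.54 and 6.38 against 18.4 and 7.4 CPM, short of the threshold (−1.85 ± 0.63, adjusted p = 0.0542), and at 68.4 and 36.8 in ectoderm-like cells. Jun, a subunit of the AP-1 factor, rose from 2 and 5 to 44 and 26 UMIs (3.65 ± 0.50, adjusted p = 0.000404), as did Fosl2, another AP-1 gene, from 1 and 3 to 27 and 8 (adjusted p = 0.00876), and Phlda1 from 4 and 0 to 35 and 5 (adjusted p = 0.0177). Among receptors Fgfr1 fell to 5 and 0 UMIs from 31 and 24 (−3.11 ± 0.74, adjusted p = 0.0106), whereas Fgfr3 had 16 and 8 against 0 and 1 (ratio 35.9, 95% interval 5.85 to 1475, adjusted p = 0.00418). Pdgfa, the ligand of PDGFRA, fell from 33.2 and 38.3 to 11.2 and 2.73 CPM (−2.46 ± 0.46, adjusted p = 0.00248). Of the 35 genes listed 21 were tested, 6 were higher (2 without XEN-like library 1) and 7 lower. Fosl2 was not called without mESC library 1 or XEN-like library 1 (adjusted p up to 0.123) and Phlda1 was not called without mESC library 2 or XEN-like library 1 (adjusted p up to 0.247). Fgfr3 was not called without XEN-like library 1 (adjusted p = 0.0528).

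Of the retinoid genes, some rose in XEN-like cells, and the 2 sorted populations differed in single members. Cyp26a1, the enzyme that degrades RA and is induced by it, was counted 532 and 162 times in XEN-like libraries 1 and 2, 2 and 2 times in mESCs and 58 and 33 times in ectoderm-like cells (7.58 ± 0.50 against mESCs and 3.05 ± 0.34 against ectoderm-like cells, adjusted p = 1.1e-05 and 0.000787). Stra6, the receptor for retinol-binding protein, had 115 and 62 against 2 and 1 UMIs in mESCs (adjusted p = 4.6e-05), and the RA receptor gene Rarb 33 and 6 against 0 (at least 19.4-fold, adjusted p = 0.00283). Neither differed from the ectoderm-like cells at the threshold (0.88 ± 0.35 and −0.46 ± 0.58, adjusted p = 0.133 and 0.677). Crabp2, the carrier that brings RA to its receptor, had 32 and 21 UMIs beside 45 and 36 in mESCs (−0.22 ± 0.32, adjusted p = 0.659, 95% interval −0.93 to 0.49) while it had 2862 and 1721 UMIs in ectoderm-like cells (−6.16 ± 0.34, adjusted p = 7.51e-06). In all, 6 genes were higher and none lower among 16 tested of 27.

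Each of the 15 genes with the largest fall outside the marker sets had no UMI in either XEN-like library. The bound on each fold uses a floor of 3 counts over the 2 XEN-like libraries. The largest falls by this measure were those of Bhmt and Pipox, both enzymes of methyl donor and amino acid metabolism. Bhmt, which makes methionine from betaine, had 336 and 34 UMIs in mESC libraries 1 and 2, so that most of its RNA came from 1 library (at least 82.5-fold lower, adjusted p = 0.00298). Pipox, which oxidises sarcosine and pipecolate, had 84 and 106 (at least 42.4-fold, adjusted p = 0.000337), and Dmgdh, an enzyme of the same betaine pathway that was chosen after its values were seen, had 30 and 41 against 0 (at least 15.8-fold, adjusted p = 0.000683). In ectoderm-like cells Bhmt had 0 UMIs, Pipox 1 and 9 and Dmgdh 1 and 0.

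Transcription factors were among them. Prdm14, a repressor of FGF signalling and DNA methylation, had 23 and 50 UMIs in mESCs (at least 16.3-fold lower, adjusted p = 0.00166), Spic, an ETS factor, 57 and 24 (at least 18.1-fold, adjusted p = 0.00136) and the Wnt-responsive homeobox gene Cdx1 50 and 49 (at least 22.1-fold, adjusted p = 0.000347). All 3 had 0 UMIs in the 4 sorted libraries. Others encode proteins best known from other tissues: Pglyrp1, a secreted protein that binds bacterial peptidoglycan (58 and 80 UMIs in mESCs), Myh13, a myosin heavy chain of eye muscles (45 and 74), Trpm1, a cation channel of the retina (22 and 72), Krt42, a keratin (68 and 19), and Ripk3, a kinase of necroptosis (28 and 49). Rasgrp2, Mcf2, Ildr1, 2410137F16Rik and 2900011O08Rik completed the group, with bounds between 19.6-fold and 29.2-fold. None of the 15 passed the threshold between the 2 sorted populations, beside 6.99% of all genes tested that were higher and 5.74% lower. With 0 UMIs in XEN-like cells, only a gene with many UMIs in ectoderm-like cells could have passed.

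By number of molecules, the largest falls among the called genes were those of Dppa5a, Eif2s2, Rps26, Mt1, Rpl24, Hsp90aa1, Mt2 and Rpl3. Dppa5a, a marker of pluripotency and among the most abundant messages of mESCs, was at 10994 and 15849 CPM there and still at 5947 and 4351 CPM in XEN-like cells (−1.61 ± 0.31, adjusted p = 0.0031), against 494 and 273 in ectoderm-like cells (3.86 ± 0.34, adjusted p = 0.000258). A near-identical gene copy, Gm6083, is listed separately, and reads may be split between them. Eif2s2, a subunit of the initiation factor eIF2, fell from 4744 and 3460 to 1360 and 987 CPM (−2.02 ± 0.25, adjusted p = 0.000232), beside 1058 and 987 CPM in ectoderm-like cells, from which it was not called different.

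The metallothioneins, small proteins that bind zinc and copper, fell together: Mt1 from 1402 and 3592 to 543 and 334 CPM (−2.75 ± 0.42, adjusted p = 0.000774) and Mt2 from 1254 and 2601 to 321 and 174 (−3.20 ± 0.43, adjusted p = 0.000347). Hsp90aa1, the cytosolic Hsp90 that is inducible by stress, fell from 2559 and 3244 to 1496 and 854 CPM (−1.54 ± 0.31, adjusted p = 0.00396), so that the cytosolic and the ER form of Hsp90 changed in opposite directions. The ribosomal protein genes of the group moved by less than 1 on the log2 scale (Rps26 −0.80 ± 0.24, Rpl24 −0.85 ± 0.23, Rpl3 −0.87 ± 0.27). Rps26 was not called without either mESC library, either ectoderm-like library or XEN-like library 1 (adjusted p up to 0.217) and Rpl24 was not called without either mESC library or XEN-like library 1 (adjusted p up to 0.154). Rpl3 was not called without mESC library 2, either ectoderm-like library or XEN-like library 1 (adjusted p up to 0.247).

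Of 44 further genes associated with pluripotency 39 were tested, 30 were lower in XEN-like cells and 1, Lin28a, was higher, with a median log2 fold change of −3.11. Leaving out 1 XEN-like or mESC library gave 25 to 29 lower genes. Tdgf1, the Nodal co-receptor Cripto, fell from 387 and 496 CPM to 5.08 and 1.82 (−7.07 ± 0.46, adjusted p = 1.1e-05), and Tdh, the threonine dehydrogenase on which mESCs depend, from 575 and 686 to 18.3 and 21.9 (−5.20 ± 0.33, adjusted p = 1.1e-05). The orphan receptor gene Nr5a2 had 21 and 18 UMIs in mESCs and 0 in XEN-like cells (at least 8.7-fold lower, adjusted p = 0.00282), and the amino acid transporter gene Slc7a3 fell from 80.5 and 100.1 to 1.02 and 2.73 CPM (−5.93 ± 0.50, adjusted p = 3.63e-05). Osteopontin (Spp1) fell from 995 and 969 CPM but differed between the XEN-like libraries, at 125 and 11.8 (−4.06 ± 0.65, adjusted p = 0.00106). Nr5a2 was not called without XEN-like library 1 (adjusted p = 0.0519).

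A few of these genes were higher in XEN-like than in ectoderm-like cells, and the first 2 named here were not called between XEN-like cells and mESCs. Fbxo15, an F-box protein, was at 111 and 129 CPM in XEN-like cells and 131 and 129 in mESCs (−0.32 ± 0.46, adjusted p = 0.65, 95% interval −1.32 to 0.68), against 2.22 and 15.5 in ectoderm-like cells (3.89 ± 0.57, adjusted p = 0.00191). Dnmt3l, a cofactor of de novo DNA methylation, was at 129.5 and 65.6 CPM in XEN-like cells, 74.4 and 27.4 in mESCs and 6.67 and 3.88 in ectoderm-like cells (0.73 ± 0.43 against mESCs, adjusted p = 0.249, 95% interval −0.21 to 1.68, and 4.27 ± 0.55 against ectoderm-like cells, adjusted p = 0.00117). L1td1, an RNA-binding protein derived from a transposon, was lower than in mESCs, at 200.1 and 111 against 397 and 325 CPM (−1.43 ± 0.34, adjusted p = 0.0111), and higher than the 8.89 and 20.0 CPM of ectoderm-like cells (3.52 ± 0.41, adjusted p = 0.000842). L1td1 was not called without XEN-like library 2 (adjusted p = 0.0938).

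Lin28a, an RNA-binding protein that blocks let-7, rose from 32.4 and 13.9 to 181 and 143 CPM (2.61 ± 0.36, adjusted p = 0.000404) and was at 166 and 155 CPM in ectoderm-like cells, a difference from XEN-like cells that was not called. Sall4, a zinc-finger factor of both mESCs and endoderm, was not called, at 193 and 111 against 112 and 84.9 CPM (0.41 ± 0.32, adjusted p = 0.384). The chromatin protein Hmga1 fell from 137 and 154 to 8.13 and 2.73 CPM (−4.84 ± 0.42, adjusted p = 3.66e-05) whereas it was at 198 and 127 CPM in ectoderm-like cells. The related gene Hmga2 was not called (−0.74 ± 0.55, adjusted p = 0.366).

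**Figure D4:**
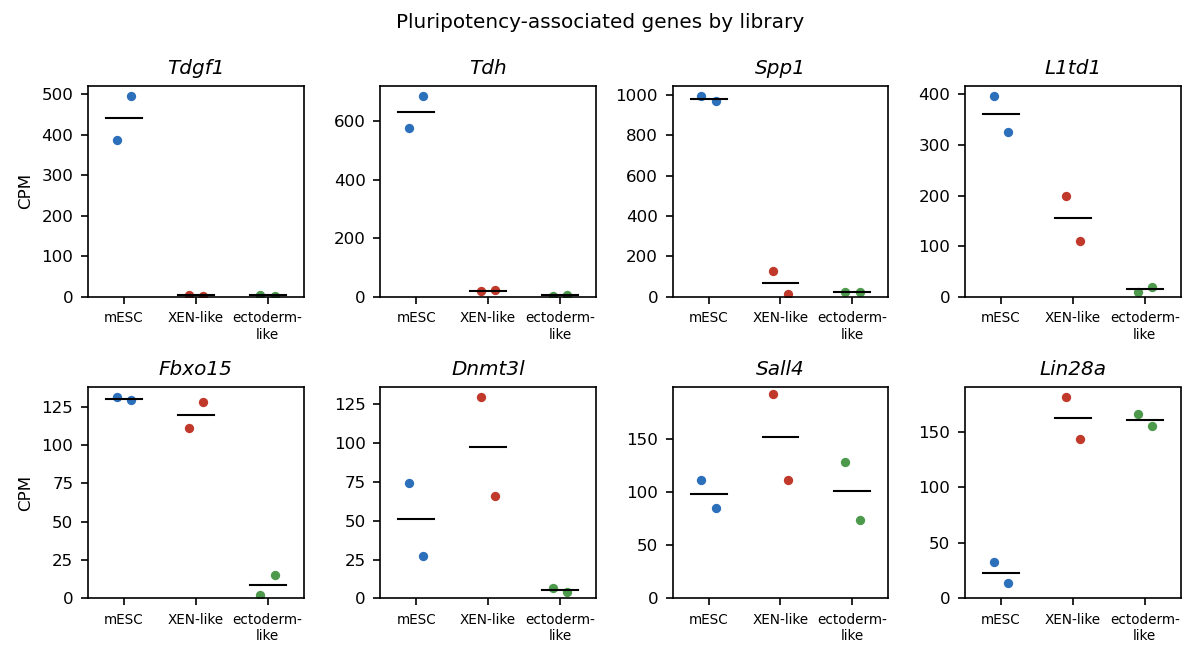
CPM (vertical, linear axis from 0) of 8 pluripotency-associated genes in each of the 2 libraries of mESCs, XEN-like cells and ectoderm-like cells, with the mean as a bar. Tdgf1, Tdh and Spp1 are far lower in both sorted populations, L1td1, Fbxo15 and Dnmt3l lie between 65.6 and 200.1 CPM in XEN-like cells and at or below 20.0 CPM in ectoderm-like cells, and Lin28a is higher in both.

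Of 18 genes that set, read or remove DNA methylation 17 were tested, 6 were lower in XEN-like cells (Dppa3 of the marker set among them) and 1 was higher, with a median log2 fold change of −0.63; 5 or 6 were lower when 1 XEN-like or mESC library was left out. The TET enzymes oxidise methylated cytosine. Tet1 fell from 49.0 and 67.9 CPM in mESCs to 8.63 and 4.56 (−3.30 ± 0.43, adjusted p = 0.000297) and Tet2 from 76 and 64 to 14 and 0 UMIs (−3.06 ± 0.63, adjusted p = 0.00446). Zfp57, which with Trim28 guards methylation at imprinted loci, fell from 49 and 38 to 7 and 1 UMIs (−3.11 ± 0.53, adjusted p = 0.00162), and Trim28 itself from 215 and 149 to 112 and 62.0 CPM (−1.27 ± 0.31, adjusted p = 0.0124). Uhrf1, which brings the maintenance enzyme to replicating DNA, fell too (−1.27 ± 0.25, adjusted p = 0.00401), while that enzyme, Dnmt1, was not called, at 54.3 and 29.2 against 59.5 and 52.7 CPM (−0.63 ± 0.35, adjusted p = 0.227). The gene that rose was Mbd2, a reader of methylated DNA, with 17 and 10 against 3 and 1 UMIs (adjusted p = 0.0111). Against ectoderm-like cells 1 gene of the list was called, Dnmt3l, whose values are given above. Trim28 was not called without mESC library 1 or XEN-like library 2 (adjusted p up to 0.107) and Mbd2 was not called without mESC library 2 or either XEN-like library (adjusted p up to 0.0742).

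Imprinted genes, expressed from the copy of 1 parent, changed in both directions. Of 33 genes 25 were tested. Of these, 6 (24%, beside 12.3% of all genes tested) were higher and 4 (16%, beside 10.5%) lower. The number lower was 2 without mESC library 2 and 1 without either XEN-like library. Igf2, a fetal growth factor, rose from 6 and 5 to 88 and 56 UMIs (4.08 ± 0.47, adjusted p = 0.000169) and Peg3, a zinc-finger gene, from 5 and 7 to 102 and 24 (3.58 ± 0.50, adjusted p = 0.000475). Sfmbt2, a Polycomb-group gene that is imprinted in extraembryonic tissue, had 54 and 36 UMIs against 4 and 9 (3.16 ± 0.49, adjusted p = 0.000937). It was also higher than in ectoderm-like cells, with 6 and 7 UMIs there (3.03 ± 0.50, adjusted p = 0.00318), whereas Peg3 was lower than in them (−1.59 ± 0.38, adjusted p = 0.0192). H19, the maternal partner of Igf2, was not called, with 11 and 10 against 2 and 5 UMIs (1.96 ± 0.68, adjusted p = 0.0611). Among the genes that fell was Zdbf2, from 20.6 and 34.4 to 11.2 and 9.11 CPM (−1.64 ± 0.42, adjusted p = 0.0158). Zdbf2 was not called without mESC library 2 or either XEN-like library (adjusted p up to 0.0929).

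Of the mitotic genes 5.71% were lower, beside 10.5% of all genes tested. All 35 were tested, none was higher and 2, Nusap1 and Ect2, both needed for the spindle and cell division, were lower (−0.81 ± 0.25 and −0.94 ± 0.29), while under library totals none was lower and 1 was higher. Ccnb1, the mitotic cyclin B1, was at 329 and 354 CPM against 402 and 313 (−0.26 ± 0.25, adjusted p = 0.48), and Top2a, the topoisomerase of condensing chromosomes, at 384 and 213 against 338 and 298 (−0.31 ± 0.29, adjusted p = 0.476). Of 40 DNA replication genes 12 were lower and 1 higher (5 lower without XEN-like library 1, 7 without XEN-like library 2). Among the lower genes were 5 of the 6 subunits of the replicative helicase, with log2 fold changes between −1.55 (Mcm2) and −0.88 (Mcm7), and under library totals 10 replication genes were lower. The loading factor Cdc6 was the exception that rose (1.18 ± 0.32, adjusted p = 0.0188). Nusap1 and Ect2 were not called without either mESC library, either ectoderm-like library or either XEN-like library (adjusted p up to 0.172 and 0.264) and Mcm2 was not called without either XEN-like library (adjusted p up to 0.0582). Mcm7 was not called without mESC library 1, either ectoderm-like library or either XEN-like library (adjusted p up to 0.271) and Cdc6 was not called without mESC library 2 or either XEN-like library (adjusted p up to 0.143).

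Of 29 genes of the G1 phase 22 were tested. Of these, 4 (18.2%, beside 12.3% of all genes tested) were higher and 1 (4.55%, beside 10.5%) lower. Of the D-type cyclins, 1 rose and 1 fell. Ccnd2 rose from 2 and 1 to 71 and 86 UMIs (ratio 78.2, 95% interval 26.3 to 383, adjusted p = 0.000101), while Ccnd1 fell as given above, and Ccnd2 was lower than in ectoderm-like cells, at 942 and 625 UMIs (−2.91 ± 0.39, adjusted p = 0.00136). Mycn was at 58.4 and 52.9 against 17.1 and 19.2 CPM (1.41 ± 0.36, adjusted p = 0.0154), and Myc was not called (−0.79 ± 0.60, adjusted p = 0.378). Mycn was not called without mESC library 1 or either XEN-like library (adjusted p up to 0.0661).

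In glycolysis single genes moved in both directions, with a median log2 fold change of −0.22. Of 20 tested genes 3 (15%, beside 12.3% of all genes tested) were higher and 6 (30%, beside 10.5%) lower. Without mESC library 2 the counts were 6 and 3, without XEN-like library 2 they were 2 and 3, and under library totals 4 and 4. Ldhb, a lactate dehydrogenase subunit, fell from 491 and 928 to 44.7 and 65.6 CPM (−3.90 ± 0.40, adjusted p = 9.67e-05), whereas Ldha was at 1204 and 1675 against 419.5 and 1077 CPM and not called (0.74 ± 0.43, adjusted p = 0.242). The phosphofructokinase isoforms went apart, Pfkp down (−2.97 ± 0.44, adjusted p = 0.00069) and Pfkl up (1.62 ± 0.50, adjusted p = 0.0372), and the lactate transporter gene Slc16a1 rose from 26.7 and 22.2 to 131 and 185 CPM (2.50 ± 0.41, adjusted p = 0.00123). Pfkl was not called without mESC library 1, ectoderm-like library 2 or either XEN-like library (adjusted p up to 0.126).

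Of 18 genes of serine, glycine and one-carbon metabolism 7 (38.9%, beside 10.5% of all genes tested) were lower and 1 higher. These counts fell to 1 lower gene without mESC library 2 or XEN-like library 1. Shmt2, the mitochondrial serine hydroxymethyltransferase, fell (−2.23 ± 0.50, adjusted p = 0.00786), as did Gldc, the glycine decarboxylase (−2.61 ± 0.67, adjusted p = 0.0156). Among lysosomal genes 9 of 29 (31.0%, beside 12.3% of all genes tested) were higher and 2 (6.90%, beside 10.5%) lower. Without mESC library 1 or XEN-like library 2, 5 were higher. Without mESC library 1, 6 were lower, and none was lower without any other of the 4. The protease cathepsin H (Ctsh) had 9 and 26 UMIs against 1 and 0 (ratio 52.3, 95% interval 8.79 to 2125, adjusted p = 0.0206), and Lipa, the lysosomal acid lipase, rose by 3.67 on the log2 scale (adjusted p = 0.00122). In cholesterol synthesis 6 of 24 (25%, beside 12.3% of all genes tested) were higher and none lower. Without mESC library 2 or XEN-like library 1, only 3 were higher. The largest rise was that of Insig1, which restrains the pathway in the ER (2.81 ± 0.40, adjusted p = 0.000545). Of 78 ribosomal protein genes 12 (15.4%, beside 10.5% of all genes tested) were lower, with a median of −0.49 on the TMM scale and −0.29 under library totals (2 lower without mESC library 2 or XEN-like library 1, 6 without mESC library 1). Of 75 nuclear genes of oxidative phosphorylation 4 (5.33%) were lower and none higher, with medians of −0.17 and 0.02 on the 2 scales, so that the sign of this list's median depended on the scaling, and under library totals 4 were higher and 4 lower. Without mESC library 1 the number of lower genes of this list was 2, and without XEN-like library 1 it was 1. Shmt2 and Gldc were not called without mESC library 2 or XEN-like library 1 (adjusted p up to 0.0735 and 0.169) and Ctsh was not called without mESC library 2 or XEN-like library 2 (adjusted p up to 0.14).

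Libraries that entered none of the tests gave the same genes a second reading. At 72 h of RA, cells had been sorted into 1 PDGFRA-positive, CD24-negative library and 3 PDGFRA-negative libraries, 1 for each tercile of CD24. Of the 1089 genes outside the marker sets that were higher in XEN-like cells, 73.8% lay above all 3 PDGFRA-negative libraries in the PDGFRA-positive one, beside 28.2% of all genes tested, and 11.02% lay below all 3. Of the 927 genes that were lower, 60.9% lay below all 3, beside 42.2% of all genes tested, and 9.82% lay above. With a margin of 1.5 times, 50.8% of the higher genes lay above all 3 (11.2% of all tested) and 38.3% of the lower genes below (19.11%). With 1 library per fraction no test was made, and the reference at 72 h is other RA-treated cells rather than mESCs.

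**Figure D5:**
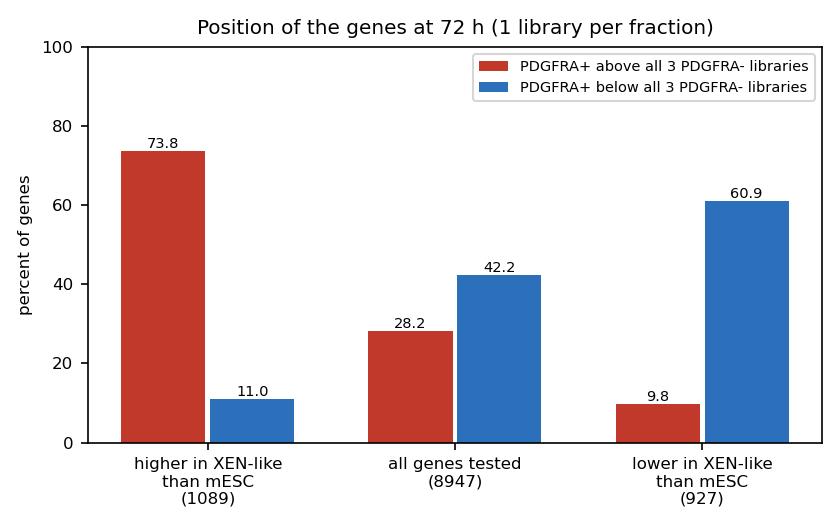
Percent of genes (vertical) whose CPM in the PDGFRA-positive library at 72 h lay above (red) or below (blue) all 3 PDGFRA-negative libraries of that time, for genes called higher, all genes tested and genes called lower in XEN-like cells against mESCs. The red bar reaches 73.8% for the genes that rose and 28.2% for all genes, and the blue bar 60.9% for the genes that fell and 42.2% for all genes.

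Of the 15 genes with the largest rise, 14 were above all 3 PDGFRA-negative libraries at 72 h, beside 28.2% of all genes tested. The exception was Sp8 at 14.0 CPM beside 4.66 to 20.3. S100g was at 309 CPM in the PDGFRA-positive library and 1.54 to 35.0 in the negative ones, Cubn at 129 beside 2.3 to 15.5 and P4ha2 at 362 beside 39.1 to 55.2. Of the 15 with the largest fall, 14 had at most 1 UMI in the PDGFRA-positive library, the exception being Ripk3 with 3. Their counts in the PDGFRA-negative libraries, and the share of all genes with so few UMIs, were not set beside this. None of the 15 was called between the sorted populations at 96 h, so the low counts do not mark the PDGFRA-positive fraction. Fbxo15 was at 123 CPM beside 7.68 to 55.2, and Dnmt3l at 146 beside 14.6 to 127.

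Pooled single cells gave a further reading by SCRB-seq, an assay in which single cells are sorted into wells and their UMIs counted. The 1 plate of mESCs (267 wells with more than 2000 UMIs) and the 1 plate of cells after 96 h of RA (132 wells), which was not sorted by lineage and so holds ectoderm-like cells too, were each summed. Of 868 genes that rose in the sorted XEN-like cells and had at least 20 UMIs over both plates, 91.6% were higher at 96 h, beside 56.6% of 7844 tested genes. Of 825 that fell, 86.9% were lower at 96 h, beside 43.4% of tested genes. With at least 50 UMIs over both plates, 92.4% of the genes that rose were higher at 96 h (55.3% of all tested) and 88.2% of those that fell were lower (44.7%). The kept wells held 1706753 UMIs at 0 h and 659400 at 96 h. Fbxo15, not called between the sorted XEN-like cells and mESCs, had 436 UMIs at 0 h and 18 at 96 h, and Dnmt3l 71 and 15. Dppa5a had 8643 and 250. The part of ectoderm-like cells in these values was not tested.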

How the data were processed

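The bulk libraries were made from 10 ng of total RNA each by digital gene expression, in which the 3′ end of each message is tagged with a UMI. The values are counts of unique UMIs per gene, deposited by the authors without normalization, after BWA 0.7.4 (seed option 24) alignment to mouse RefSeq mRNAs (mm10), mitochondrial and spike-in sequences. Gene length does not enter such counts, so CPM is the UMIs of a gene per 1000000 UMIs of the library.

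Of 23481 rows, Rn45s and Gkn2 were left out because 3 of their values in other libraries were damaged. Genes were tested with edgeR 4.0.16 (R 4.3.3; TMM, filterByExpr, quasi-likelihood F test, two-sided) over 6 libraries of 3 groups that share 1 estimate of the spread (common biological coefficient of variation 0.247), with the Benjamini-Hochberg adjustment over all genes tested and a threshold of 0.05. The fits were tested on simulated data, in which 191 of 8474 genes were changed, far fewer than were called here. Of changes of 1, 2 and 3 on the log2 scale, 8.22%, 83.1% and 93.2% were called. A gene that was not called may thus still differ by 1 on the log2 scale. Replicates correlated at r = 0.957 (mESCs), 0.951 (XEN-like) and 0.947 (ectoderm-like) in log2 CPM across genes. The 95% intervals of count ratios are exact and, like the floor of 3 counts, cover counting error only. Tables were read in Python 3.11.15 (pandas 2.3.3, numpy 2.4.6, scipy 1.17.1).

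Named genes are the 15 largest fold changes in each direction outside the marker sets (at least 10 counts in each library of the higher group, no overlap), the 8 largest differences in mean CPM among called genes in each direction, and up to 5 called and 2 uncalled members of each gene list; further genes of the lists are given for context. Results for a few genes are not reported here. Members and lists were chosen with earlier results of these data known. The 72 h and SCRB-seq counts were described without a test. Single-cell plates of other time points and the SMART-seq files were not used. Alternatives covered the scaling, the filter, the test, the libraries and a replicate block.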

Additional observations from a re-analysis of the deposited data

How the results depend on the processing

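No named gene that was called turned its sign under the alternatives run, but the balance of some counts turned: without the filter more genes were lower than higher, and glycolysis and lysosomal genes turned when 1 mESC library was left out (6 higher and 3 lower without mESC library 2, and 5 and 6 without mESC library 1). Counts of the lists were recomputed for library totals and left-out libraries only. Against 2-fold rather than no difference (glmTreat), 514 genes were higher and 459 lower in XEN-like cells than in mESCs. When 1 of the 6 libraries was left out, 738 to 1092 genes were higher and 532 to 864 lower, the fewest without XEN-like library 1, and 1200 of those 1270 calls were also among the 2042 of the full fit. The counts were 1113 and 907 with RLE factors, 852 and 693 with DESeq2, 1127 and 843 with the 4 libraries alone and 1326 and 1383 with no filter. Against ectoderm-like cells (625 higher, 514 lower) they were 839 and 828 with no filter and 496 and 283 with DESeq2, and 135 to 746 higher and 134 to 626 lower when 1 library was left out, the fewest without ectoderm-like library 1. The causes were not tested.

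The sorted libraries share replicate numbers 1 and 2 between the groups, whereas 1 of the mESC libraries carries no number. Deviations of same-numbered XEN-like and ectoderm-like libraries correlated at r = 0.323 across genes, but with 2 numbers this is only a shared number and the samples were not treated as paired. With the replicate number as a block, 1200 genes were higher and 1200 lower than in mESCs, and 744 and 597 than in ectoderm-like cells.

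The shallowest library held 1097157 UMIs, and a count of 0 over a group allows up to 3 counts there.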
